A study of Homo sapiens with 12 samples.

Results

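UPK1A, the gene of the membrane protein uroplakin 1A, had essentially no reads in the 3 libraries of HMC3 cells given both EphB2-Fc and ephrin-B1 siRNA, and between 17.9 and 73.0 estimated counts in each of the 9 other libraries. It is 1 gene of 21601 tested and of 36315 genes paired with the deposited transcripts. It was chosen by these estimated counts, so its levels in EphB2 + ephrin-B1 siRNA cells, and every difference that involves them, are given below as a description with no test. HMC3 is an immortalized human cell line used as a model of microglia, the resident macrophages of the brain. Bulk RNA of these cells was sequenced in 12 libraries, 3 in each of 4 groups, to ask how EphB2 acts on microglia through its partner ephrin-B1.

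All groups received an siRNA for 48 h and then a pre-clustered Fc protein at 2 ug/mL for 24 h. EphB2 + ephrin-B1 siRNA cells received EphB2-Fc and ephrin-B1 siRNA, ephrin-B1 siRNA cells received Ctrl-Fc and ephrin-B1 siRNA, EphB2 cells received EphB2-Fc and negative control siRNA, and Ctrl cells received Ctrl-Fc and negative control siRNA. All 4 groups come from 1 immortalized line, and fewer cells with a transcript cannot be told apart from less of it per cell in such bulk RNA.

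Uroplakins are membrane proteins of the umbrella cells that line the urinary tract. Uroplakin 1A and uroplakin 1B are tetraspanins, proteins with 4 membrane-spanning segments that organize other membrane proteins. In the urothelium uroplakin 1A pairs with uroplakin 2, the pair uroplakin 1B and uroplakin 3A forms alongside it, and together they build rigid plaques of the cell surface. Uroplakin 1A is also known as a receptor for the FimH adhesin of uropathogenic bacteria. It is not a defining marker of microglia.

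The gene UPK1A (ENSG00000105668) is protein coding and lies on chromosome 19 between 35666517 and 35678481 on the plus strand of GRCh38 (GENCODE 44 annotation). The deposited tables list 2 of its transcripts, UPK1A-201 (ENST00000222275, 1223 bases long in the tables) and UPK1A-202 (ENST00000379013, 1016 bases). Each has 8 exons. They differ at their ends and by an additional coding exon of UPK1A-202, exon 6, whose inclusion places the annotated stop codon in exon 7, against exon 8 in UPK1A-201. The junction of exons 6 and 7 of UPK1A-201 is shown because UPK1A-201, the transcript to which nearly all reads of the gene were assigned, joins these exons directly. The exons meet after base 20, and these bases lie on the plus strand between 35676000 and 35677831 of chromosome 19, with an intron between them.

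UPK1A-201: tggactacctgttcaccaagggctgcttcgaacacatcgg

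The authors assigned reads to transcripts with kallisto, which matches short words of sequence, and the words of 31 bases in both transcripts were therefore compared with all transcripts of GENCODE 44. UPK1A-201 held 1235 such words, of which 861 were shared with UPK1A-202 and 374 were its own, and 0 occurred in a gene other than UPK1A-AS1. Of the 986 words of UPK1A-202, 10 also occurred in other genes, in 21 transcripts of 16 genes. The antisense gene UPK1A-AS1, a long noncoding RNA, runs on the minus strand across the first part of UPK1A, between 35667948 and 35673304, and shared 212 words, read on either strand, with each transcript, 17.2% of those of UPK1A-201 and 21.5% of those of UPK1A-202. UPK1A-AS1 itself was not analysed here. The counting is not stated to use strand, so reads of UPK1A and of UPK1A-AS1 cannot be told apart over these words.

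Library totals lay between 13.2 and 25.8 M (mega) estimated counts. The deepest library and the shallowest library of the series were both in the EphB2 + ephrin-B1 siRNA group, whose libraries held 25.8, 18 and 13.2 M counts. EFNB1, which encodes ephrin-B1, the protein the siRNA targets, averaged 7.47 ± 1.10 CPM (counts per M counts, scaled by TMM) in ephrin-B1 siRNA cells and 19.1 ± 1.51 CPM in Ctrl cells (SD, n = 3 each), a log2 fold change of -1.35 (edgeR adjusted p = 0.00124). It averaged 6.32 ± 0.272 CPM in EphB2 + ephrin-B1 siRNA cells and 17.6 ± 1.73 CPM in EphB2 cells (SD, n = 3 each), a log2 fold change of -1.47 (edgeR adjusted p = 0.00189, and 0.0795 when only these groups were fitted). EFNB1 was at 6.03 to 8.70 CPM in the 6 libraries labelled with the siRNA and at 15.6 to 20.4 CPM in the 6 others. The siRNA part of the labels thus held. EFNB1 does not check the Fc part of the labels. Of 15 markers of microglia, 9 had at least 10 counts over the 12 libraries, C1QB was at 0 in every library, and AIF1, CX3CR1, C1QA, C1QC and TYROBP were at 3 counts or fewer in total, while CSF1R, a receptor of microglial survival factors, had 467 counts and TMEM119, PTPRC and TREM2 had 116, 112 and 105. Defining markers of microglia were thus in part absent and in part at low levels.

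In EphB2 + ephrin-B1 siRNA cells UPK1A had 0.368, 0 and 0 estimated counts in replicates 1, 2 and 3. It had 73.0, 24.0 and 48.0 in ephrin-B1 siRNA cells, 56.0, 21.0 and 34.6 in EphB2 cells and 17.9, 26.5 and 23.2 in Ctrl cells. The counts of the EphB2 + ephrin-B1 siRNA libraries overlapped with those of none of the other groups, and the deepest library of the series, replicate 1 of that group, held under 1 count.

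A fraction of a count, as in replicate 1, arises when kallisto divides reads among transcripts. The transcript that took the rest was not identified. UPK1A-202 had 0 counts in that library. Within the annotation searched, UPK1A-201 shared 0 words with genes other than UPK1A-AS1, which was not among the transcripts listed. EphB2 replicate 3, at 34.6 counts, also held a fraction, as did the 3 Ctrl libraries, at 17.9, 26.5 and 23.2. UPK1A-202 was at 0 in these libraries as well. The search for shared words did not extend to listed transcripts outside that annotation, and 21686 of those listed were not paired with it. Such transcripts could hold sequence of UPK1A, which was not tested. The words also came from another version of UPK1A-201 than the counts. They therefore do not establish that all reads counted for UPK1A were its own. A count of 0 allows up to 3 counts (the exact two-sided Poisson interval drawn in the plot of CPM ends at 3.69), which is 0.118, 0.176 and 0.233 CPM in replicates 1, 2 and 3 of EphB2 + ephrin-B1 siRNA cells and 0.0542 CPM over the 3 together. These limits and the exact Poisson intervals below cover counting error only. Summed over 3 libraries, UPK1A had 0.368 counts in EphB2 + ephrin-B1 siRNA cells, 145 in ephrin-B1 siRNA cells, 112 in EphB2 cells and 67.6 in Ctrl cells.

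**Figure D1:**
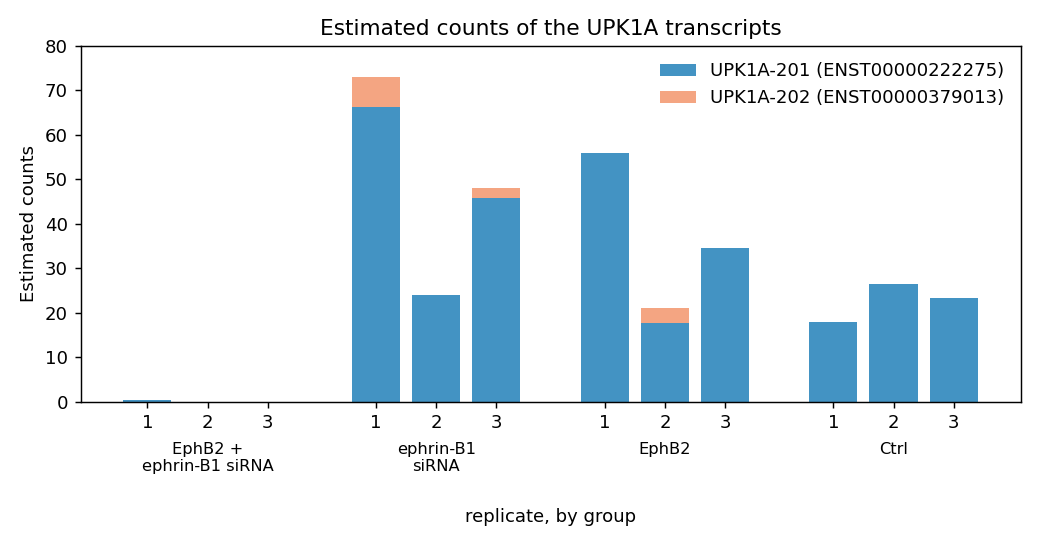
Estimated counts of UPK1A-201 (blue) and UPK1A-202 (orange), stacked, in each of the 12 libraries (horizontal axis: replicate within group). The 3 EphB2 + ephrin-B1 siRNA libraries hold 0.368, 0 and 0 counts, and the other bars are made almost wholly of UPK1A-201.

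Nearly all reads of the gene were assigned to UPK1A-201. UPK1A-202 received counts in 3 libraries only, 6.82 in ephrin-B1 siRNA replicate 1 (9.3% of the gene's counts there), 2.34 in ephrin-B1 siRNA replicate 3 (4.9%) and 3.30 in EphB2 replicate 2 (15.7%). It was at 0 in the 3 Ctrl libraries and the 3 EphB2 + ephrin-B1 siRNA libraries. With so few counts no difference between groups in the use of UPK1A-202 was detectable at this depth. The loss of counts in EphB2 + ephrin-B1 siRNA cells was a loss of UPK1A-201, with no gain of UPK1A-202 in its place.

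Scaled for depth, UPK1A was at 0 CPM in all 3 EphB2 + ephrin-B1 siRNA libraries. It was at 3.84, 1.40 and 2.31 CPM in replicates 1, 2 and 3 of ephrin-B1 siRNA cells, at 3.20, 1.33 and 1.71 CPM in EphB2 cells and at 1.35, 1.39 and 1.20 CPM in Ctrl cells. In both treated groups with reads replicate 1 was the highest, while the Ctrl libraries lay close together.

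The group means were 2.52 ± 1.23 CPM in ephrin-B1 siRNA cells, 2.08 ± 0.989 CPM in EphB2 cells and 1.31 ± 0.100 CPM in Ctrl cells (SD, n = 3 each). For EphB2 + ephrin-B1 siRNA cells 3 counts over the group set a limit of 0.0542 CPM. That limit was 47.0-fold below the level of ephrin-B1 siRNA cells, pooled over their 3 libraries. It was 38.3-fold below that of EphB2 cells and 24.1-fold below that of Ctrl cells. These bounds leave out the counting error and spread of the groups with reads. The groups with reads lay within a factor of 1.92 of each other.

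Per length and depth, in transcripts per M transcripts (TPM), UPK1A was at 0.0151, 0 and 0 TPM in EphB2 + ephrin-B1 siRNA cells. It averaged 3.51 ± 2.29 TPM in ephrin-B1 siRNA cells, 2.36 ± 1.43 TPM in EphB2 cells and 1.49 ± 0.246 TPM in Ctrl cells (SD, n = 3 each). UPK1A was therefore a gene of modest level where it was detected. Of the genes tested, 99.2% had a higher mean TPM in EphB2 + ephrin-B1 siRNA cells, whose median gene was at 4.67 TPM, against 55.1% in ephrin-B1 siRNA cells, 58.1% in EphB2 cells and 62.6% in Ctrl cells.

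**Figure D2:**
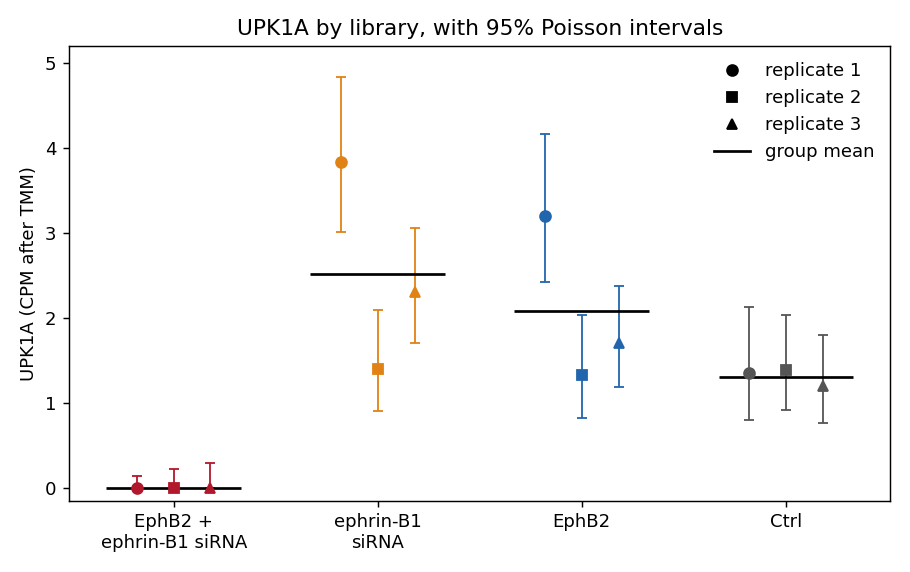
UPK1A in CPM after TMM normalization (vertical axis) in each library, by group, with exact 95% Poisson intervals of the rounded count as bars and the group mean as a line. The EphB2 + ephrin-B1 siRNA libraries are at 0, Ctrl libraries lie between 1.20 and 1.39 CPM, and replicate 1 is the highest in ephrin-B1 siRNA and EphB2 cells.

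The order of the means was ephrin-B1 siRNA, EphB2, Ctrl, with EphB2 + ephrin-B1 siRNA last. Neighbours in the upper part of this order did not differ beyond their spread. Ephrin-B1 siRNA cells exceeded EphB2 cells in 3 of 3 same-numbered pairs, but only by factors of 1.20, 1.06 and 1.35, and their ranges overlapped.

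The comparisons of each single treatment with Ctrl use none of the EphB2 + ephrin-B1 siRNA libraries whose empty counts chose the gene, although the gene was also chosen for having clear counts in them. The fit shares its estimate of spread with those libraries. In ephrin-B1 siRNA cells UPK1A was 2.85, 1.01 and 1.92 times its level in Ctrl cells in replicates 1, 2 and 3. This amounted to a log2 fold change of 0.94 (SE 0.425, edgeR adjusted p = 0.422), and 391 genes, 1.81% of those tested, passed the adjusted threshold of 0.05 in this comparison. UPK1A did not pass it.

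The lowest ephrin-B1 siRNA library (1.40 CPM) was just above the highest Ctrl library (1.39 CPM), a gap far inside their counting intervals of 0.899 to 2.09 and 0.919 to 2.03 CPM. All 3 libraries above all 3 is a pattern of 1979 genes in this comparison, 9.16% of those tested. In TPM the groups overlapped, with 1.53 TPM in ephrin-B1 siRNA replicate 2 and 1.72 TPM in Ctrl replicate 1.

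In EphB2 cells UPK1A was 2.37, 0.952 and 1.42 times its level in Ctrl cells in replicates 1, 2 and 3, higher in 2 of 3 pairs, and the groups overlapped. The log2 fold change was 0.66 (SE 0.429, edgeR adjusted p = 0.807). In this comparison 8 genes, 0.037% of those tested, passed, and UPK1A was not among them. Blocked on the replicate number, the edgeR adjusted p was 0.0951 for ephrin-B1 siRNA against Ctrl and 0.371 for EphB2 against Ctrl, so neither call changed.

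Variation between replicates was large for this gene. Replicate 1 was 2.74 times replicate 2 in ephrin-B1 siRNA cells and 2.41 times in EphB2 cells, against 0.967 times in Ctrl cells. The coefficient of variation was 48.9% in ephrin-B1 siRNA cells, 47.6% in EphB2 cells and 7.6% in Ctrl cells. The Ctrl libraries, at 1.20 to 1.39 CPM, lay well inside the counting interval of Ctrl replicate 1, 0.799 to 2.13 CPM. Their closeness is thus no measure of a smaller biological spread. The fitted biological coefficient of variation of UPK1A, which also takes in the libraries at 0, was 0.351, against 0.182 in common over all genes. In ephrin-B1 siRNA cells the counting interval of replicate 1, 57.2 to 91.8 counts, did not meet that of replicate 2, 15.4 to 35.7 counts, so the difference between these replicates was larger than counting error.

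How many genes share the pattern of counts that chose UPK1A is given as a description, since the gene was picked for it. Of 13956 genes with at least 10 counts in each of the 9 other libraries, 1 gene (0.00717%), UPK1A itself, was under 0.5 counts in all 3 EphB2 + ephrin-B1 siRNA libraries. The same question asked of ephrin-B1 siRNA, EphB2 and Ctrl libraries in turn gave 0 genes each.

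With a minimum on the sum over the 9 others in place of a minimum in each, UPK1A was the only gene when that minimum was set to its own rounded sum, 324 counts, and no gene was left at 2 times that sum or when an exact 0 before rounding was asked for. At 0.5 times that sum ZNF252P, a transcribed pseudogene, joined it, with 0, 0 and 0 counts in EphB2 + ephrin-B1 siRNA libraries. ZNF252P was also at 0 in 4 of the 9 other libraries and reached 74.4 counts in ephrin-B1 siRNA replicate 3. UPK1A thus differed from it in having counts in every library outside EphB2 + ephrin-B1 siRNA.

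Among those 13956 genes the mean CPM of EphB2 + ephrin-B1 siRNA libraries over that of the other 9 had a median of 0.989, with 0.681 at the 1st percentile and 1.39 at the 99th. UPK1A was at 0. The next gene, named here for its rank, was PCSK5, a proprotein convertase, at 0.109, with 62.1, 60 and 45 counts in EphB2 + ephrin-B1 siRNA libraries and 28.6 to 4178.6 counts in the others. Its libraries overlapped and it was well detected in each.

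**Figure D3:**
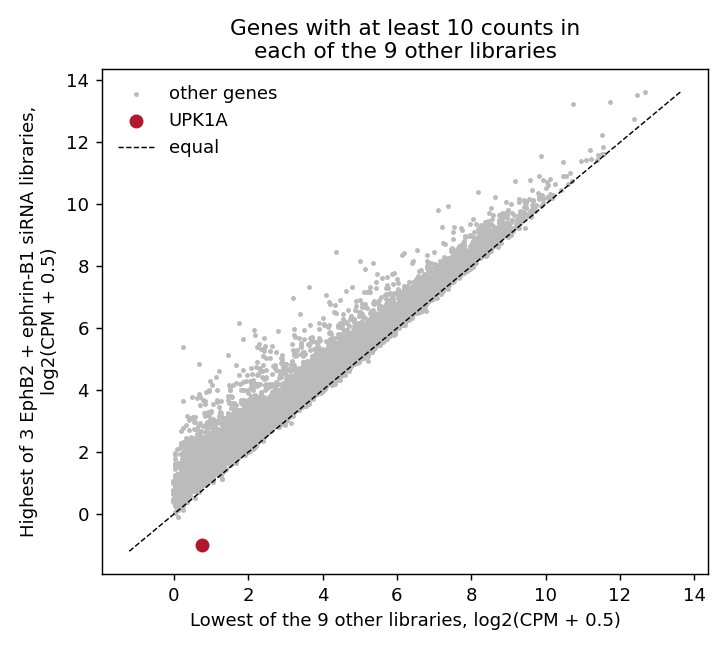
For 13956 genes with at least 10 counts in each of the 9 other libraries, the highest of the 3 EphB2 + ephrin-B1 siRNA libraries (vertical axis) against the lowest of the 9 others (horizontal axis), both as log2(CPM + 0.5), with a dashed line of equal values. UPK1A (red) lies at 0 CPM on the vertical axis, below all other genes.

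Among single transcripts the pattern was less rare. With a sum over the 9 others of at least 324 counts, 34 transcripts were under 0.5 counts in all 3 EphB2 + ephrin-B1 siRNA libraries, against 40, 30 and 29 for the same pattern in ephrin-B1 siRNA, EphB2 and Ctrl libraries. With at least 10 counts in each other library the numbers were 5, 1, 3 and 4 in the same order. The 5 were 1 transcript each of UPK1A, PELP1, ZNF28, MAPKAP1 and TMEM94. In the last 4 genes, which have between 8 and 32 transcripts listed, other transcripts carried the reads, as in PELP1, a coregulator of nuclear receptors, with 2459.1 to 5102.6 counts in EphB2 + ephrin-B1 siRNA libraries and 2432.1 to 3744.7 in the others. UPK1A, with 2 transcripts listed, was the one in which the whole gene went to 0.

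The genes next to UPK1A were read in every library of all 4 groups. The 3 nearest protein-coding genes upstream were COX6B1, a subunit of cytochrome c oxidase, 7735 bases away, ETV2, an ETS transcription factor, and RBM42, an RNA-binding protein. Downstream lay ZBTB32, a zinc finger repressor, 26077 bases away, KMT2B, a histone methyltransferase, and IGFLR1, a receptor-like membrane protein. COX6B1 averaged 54.6 ± 3.64 CPM in EphB2 + ephrin-B1 siRNA cells, 55.9 ± 6.05 CPM in ephrin-B1 siRNA cells, 53.8 ± 5.33 CPM in EphB2 cells and 58.5 ± 9.01 CPM in Ctrl cells (SD, n = 3 each).

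ZBTB32 is a gene of about the same level as UPK1A. It had 40, 17 and 8 counts in EphB2 + ephrin-B1 siRNA libraries, against 24 to 34 in ephrin-B1 siRNA, 21 to 31 in EphB2 and 13 to 35 in Ctrl libraries. A neighbour of like depth was thus counted in the libraries in which UPK1A was not.

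None of the 6 neighbours passed the adjusted edgeR test in any of the 4 comparisons. For EphB2 + ephrin-B1 siRNA against EphB2, in which 133 genes or 0.616% of those tested passed, their log2 fold changes lay between -0.37 and 0.23 (smallest adjusted p = 0.232). For EphB2 + ephrin-B1 siRNA against ephrin-B1 siRNA, in which 25 genes or 0.116% passed, they lay between -0.40 and 0.08 (smallest adjusted p = 0.876). At an unadjusted p under 0.05 the first of these comparisons had 1 neighbour and the other 3 comparisons 0, and DESeq2 called 0 in all 4, with no adjusted p for 2 or 3 of the 6. With the replicate block RBM42 passed for EphB2 + ephrin-B1 siRNA against EphB2 (log2 fold change 0.23, adjusted p = 0.0165) and KMT2B for ephrin-B1 siRNA against Ctrl (0.16, adjusted p = 0.0222), in fits that called 9.93% and 13.6% of all genes tested. Both changes were upward and small beside the bound of UPK1A.

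**Figure D4:**
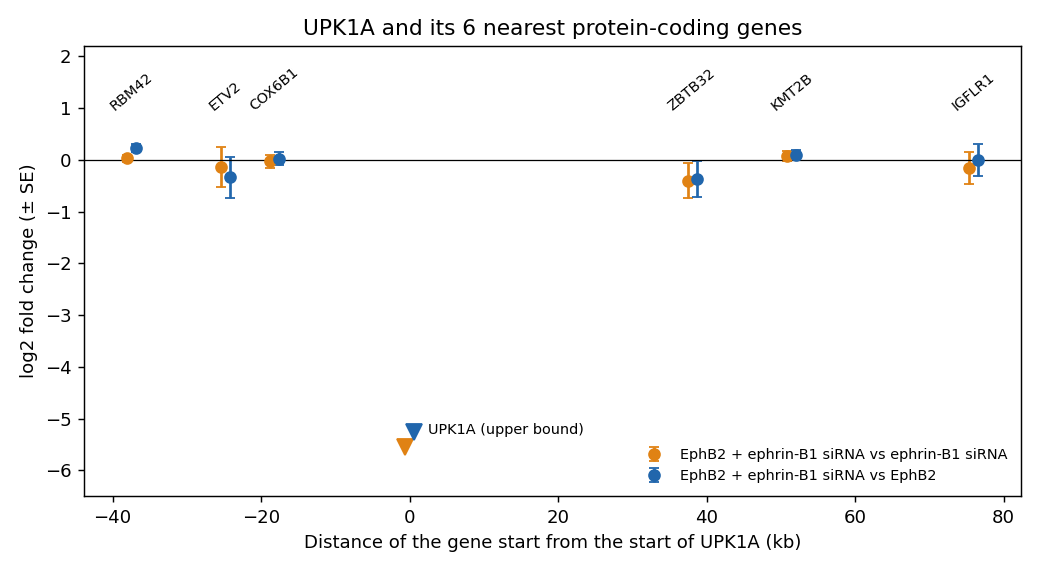
Log2 fold change (edgeR) of the 6 nearest protein-coding genes, with an SE derived from the F statistic. EphB2 + ephrin-B1 siRNA is set against ephrin-B1 siRNA (orange) and against EphB2 (blue). The horizontal axis is the distance of each gene's start from that of UPK1A in kb. The triangles are upper bounds for UPK1A, -5.55 and -5.26 on the log2 scale, which leave out the error of the group with reads. The neighbours lie between -0.40 and 0.23.

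The other uroplakin genes did not share the pattern. Of the 7 genes of the family, chosen with earlier results of these data known, UPK3A had 4 counts over all 12 libraries, 0 of them in EphB2 + ephrin-B1 siRNA libraries, and was not tested. Of the 5 others beside UPK1A, 0 passed the adjusted edgeR test in any of the 4 comparisons. These called 0.037% to 1.81% of all genes tested, so 0 of 5 is no result about the family. At an unadjusted p under 0.05 there were 1 or 2 of the 5 per comparison, and DESeq2 called 0, with no adjusted p for 3 of them. Their median log2 fold change was 0.50 for EphB2 + ephrin-B1 siRNA against EphB2 and 0.39 for EphB2 + ephrin-B1 siRNA against ephrin-B1 siRNA, beside -0.017 and 0.001 over all genes tested.

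UPK1B, the other uroplakin that is a tetraspanin, had 63 counts over all libraries, with 7.1, 8.6 and 4.2 counts in EphB2 + ephrin-B1 siRNA libraries, against 2.0 to 3.3 in ephrin-B1 siRNA, 3.0 to 7.6 in EphB2 and 4.0 to 10.2 in Ctrl libraries. UPK2, the partner of uroplakin 1A in the urothelium, had 47 counts in all, with 7.0, 3.0 and 4.0 in EphB2 + ephrin-B1 siRNA libraries and 1.0 to 6.0 in the 9 others. UPK3B, which pairs with uroplakin 1B, had 70 counts, with 13.0, 2.3 and 5.3 in EphB2 + ephrin-B1 siRNA libraries. All 3 were near the floor of detection in every group and at 0 in no EphB2 + ephrin-B1 siRNA library. UPK3BL1 and UPK3BL2 had 1362 and 1434 counts, and since they are near-identical copies their separate levels are uncertain. In Ctrl cells UPK1A was the uroplakin with the highest mean TPM apart from these copies, at 1.49 TPM, with UPK2 at 0.515, UPK3B at 0.409 and UPK1B at 0.372 TPM.

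Of 31 tetraspanins other than the uroplakins, 30 were tested. In Ctrl cells 23 of the 31 had a higher mean TPM than UPK1A, led by CD63, a protein of late endosomes and exosomes, at 365 TPM. For ephrin-B1 siRNA against Ctrl 3 of 30 fell, 0 rose and 27 did not pass, beside 1.15% of all genes that fell and 0.657% that rose, with a median log2 fold change of -0.24 beside -0.003 over all genes. TSPAN14, a partner of the protease ADAM10, had a log2 fold change of -0.45 (edgeR adjusted p = 0.00401), TSPAN17, of the same subfamily, of -0.83 (edgeR adjusted p = 0.0183) and CD82, also called KAI1, of -0.38 (edgeR adjusted p = 0.0263). UPK1A had a positive difference in that comparison (0.94) and did not pass.

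For EphB2 + ephrin-B1 siRNA against ephrin-B1 siRNA, the comparison with the largest bound for UPK1A, 1 tetraspanin rose and 0 fell, beside 0.0833% of all genes that rose and 0.0324% that fell. It was CD82, with 101, 89.9 and 91.6 CPM in EphB2 + ephrin-B1 siRNA cells and 64.2, 64.0 and 63.8 CPM in ephrin-B1 siRNA cells (log2 fold change 0.56, edgeR adjusted p = 0.0147). The CD82 call was lost when any 1 ephrin-B1 siRNA library, or EphB2 + ephrin-B1 siRNA replicate 1 or 3, was left out (adjusted p up to 0.136), and that of ephrin-B1 siRNA against Ctrl with any of its 6 libraries (up to 0.136). The TSPAN17 call held only without ephrin-B1 siRNA replicate 1 (adjusted p up to 0.105 otherwise), while that of TSPAN14 held in all 6.

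For the comparison of EphB2 with Ctrl, and that of EphB2 + ephrin-B1 siRNA with EphB2, no tetraspanin passed with edgeR, with 1 and 5 at an unadjusted p under 0.05 and 1 and 3 by DESeq2, which called 1.82% and 5.5% of the genes it gave an adjusted p. The tetraspanin that DESeq2 called for EphB2 against Ctrl was CD82, which was higher there too (log2 fold change 0.35, edgeR adjusted p = 0.193, and 0.00139 with the block). With the replicate block 9 fell and 1 rose for ephrin-B1 siRNA against Ctrl, 7 fell and 1 rose for EphB2 + ephrin-B1 siRNA against EphB2, 2 rose for EphB2 + ephrin-B1 siRNA against ephrin-B1 siRNA, and 1 rose and 1 fell for EphB2 against Ctrl. In that order the block called 13.6%, 9.93%, 6.92% and 5.34% of all genes tested. The lowest log2 fold change of a tetraspanin was -0.75 (TSPAN17) for EphB2 + ephrin-B1 siRNA against EphB2 and -1.06 (TSPAN7) for EphB2 + ephrin-B1 siRNA against ephrin-B1 siRNA, beside upper bounds of -5.26 and -5.55 for UPK1A. Of 20 proteins that associate with tetraspanins, 0 passed with edgeR in any comparison (1, 4, 5 and 1 at an unadjusted p under 0.05 for EphB2 against Ctrl, ephrin-B1 siRNA against Ctrl, EphB2 + ephrin-B1 siRNA against EphB2 and EphB2 + ephrin-B1 siRNA against ephrin-B1 siRNA, and 1, 2, 1 and 1 by DESeq2, which called 1.82%, 7.86%, 5.5% and 2.1% of its genes). The 2 genes with the smallest p, both integrin subunits, were ITGB4, for EphB2 against Ctrl (log2 fold change -0.57, edgeR adjusted p = 0.12) and for EphB2 + ephrin-B1 siRNA against ephrin-B1 siRNA (-0.55, edgeR adjusted p = 0.103), and ITGA3 for ephrin-B1 siRNA against Ctrl (-0.21, edgeR adjusted p = 0.111). With the block, in the same order of comparisons, 0, 3, 3 and 1 rose and 2, 7, 7 and 1 fell, beside 5.34%, 13.6%, 9.93% and 6.92% of all genes called, and ITGB4 passed in all 4 (adjusted p = 3.68e-05, 0.00658, 0.00788 and 3.39e-05).

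UPK1A is a marker of the urothelium, and 14 other urothelial markers were read beside it. Their summed level was 178 to 223 TPM in EphB2 + ephrin-B1 siRNA libraries, 207 to 247 TPM in ephrin-B1 siRNA, 197 to 239 TPM in EphB2 and 262 to 308 TPM in Ctrl libraries, almost all of it KRT7, a keratin of simple epithelia. Of the 14 markers 12 were tested. Without a block only KRT7 passed, falling for ephrin-B1 siRNA against Ctrl (log2 fold change -0.62, edgeR adjusted p = 0.0111), beside 1.15% of all genes that fell. That call was lost without Ctrl replicate 2 or 3 or ephrin-B1 siRNA replicate 3 (adjusted p up to 0.0664). At an unadjusted p under 0.05 this comparison had 2 markers and the 3 others 1 each. DESeq2 called only KRT7, in this comparison, with no adjusted p for 7 to 9 of the 12. With the block KRT7 also fell for EphB2 against Ctrl (adjusted p = 0.0162) and for EphB2 + ephrin-B1 siRNA against EphB2 (adjusted p = 0.0414). For ephrin-B1 siRNA against Ctrl ELF3 fell (adjusted p = 0.03) and GRHL3 rose (adjusted p = 0.00838), both epithelial transcription factors. In that order of comparisons the block called 5.34%, 9.93% and 13.6% of all genes tested. KRT7 was at 163, 146 and 169 CPM in EphB2 + ephrin-B1 siRNA libraries and at 156, 158 and 157 CPM in ephrin-B1 siRNA libraries, which overlapped. The part of these markers in the result for UPK1A was not tested. The summed level of the 15 markers of microglia was 3.99 to 5.57 TPM in EphB2 + ephrin-B1 siRNA libraries, 4.58 to 6.47 in ephrin-B1 siRNA, 4.54 to 7.74 in EphB2 and 4.02 to 5.24 in Ctrl libraries, and 0 of the 9 tested passed with edgeR without a block in any comparison (2 at an unadjusted p under 0.05 for ephrin-B1 siRNA against Ctrl and 0 for the other 3, with no adjusted p from DESeq2). Without a block 0.037% to 1.81% of all genes tested passed, depending on the comparison. With the block CSF1R, 1 of the 9, fell for ephrin-B1 siRNA against Ctrl (adjusted p = 0.0481), in a fit that called 13.6% of all genes tested.

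The genes whose levels followed UPK1A most closely over the 12 libraries were CACNA2D4, an auxiliary calcium channel subunit (Pearson r = 0.90), CEP20, a centrosomal protein (0.86), GALNT11, a glycosyltransferase (0.85), STK32B, a kinase (0.84), and ACSS2, an acetyl-CoA synthetase (0.84). These correlations of log2(CPM + 0.5) describe libraries that share 3 values at the floor for UPK1A. Over the 9 libraries with UPK1A reads r was 0.77, 0.59, 0.57, 0.01 and 0.61 for these genes in the same order. The highest r of any other gene tested was 0.97 over those 9, so the genes named are not the closest there.

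None of them went to 0 where UPK1A did. CEP20 averaged 18.7 ± 0.722 CPM in EphB2 + ephrin-B1 siRNA cells, 24.5 ± 1.11 CPM in ephrin-B1 siRNA cells, 24.7 ± 3.81 CPM in EphB2 cells and 22.0 ± 0.292 CPM in Ctrl cells (SD, n = 3 each). CACNA2D4 rests on 59 counts in all.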

How the data were processed

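RNA of HMC3 cells was sequenced after rRNA depletion. The authors ran kallisto (version not given in the sources used here) against Ensembl cDNA of GRCh38 and deposited, per library, estimated counts without normalization and TPM, which the authors' kallisto run computed from these counts and effective lengths. Each table lists 188753 transcripts, of which 167067 (88.5%, holding 95.25% to 95.98% of a library's counts) were paired with 36315 genes of GENCODE 44. The others were not used here.

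Gene counts are rounded sums over transcripts. The 21601 genes that reached 10 counts in all were fitted in edgeR 4.0.16 (quasi-likelihood F test, TMM, all 4 groups in 1 fit, no block, Benjamini-Hochberg over all genes, threshold 0.05). CPM are after TMM. The SE of a log2 fold change is its absolute value over the square root of the F statistic, and it is unreliable for changes near 0. A count under 0.5 rounds to 0. The 95% Poisson intervals are exact, for rounded counts, and the floor is 3 counts. Alternatives were DESeq2 1.42.0, its size factors in edgeR, no filter, filterByExpr, only the groups compared, the replicate block and leaving out single libraries, and a minimum of 10 counts in each other library was added after the data were seen. The sequence of UPK1A-201 was read from GENCODE 44, and that of the additional exon of UPK1A-202 is not reported here. GENCODE 44 holds version 3 of UPK1A-201 and the tables version 2, which was not compared.

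The gene, the lists and the neighbours' rule were chosen with earlier results of these data known. Named genes are UPK1A, its 3 nearest protein-coding genes on each side and any overlapping gene, the 5 most correlated genes, genes of the same zero pattern, all uroplakins, list members that passed (at most 4 per comparison, or the 2 smallest p) and EFNB1. The submitted file names give same-numbered libraries 1 experiment number, so the numbers were taken as pairs. Their deviations from group means correlated at 0.59 to 0.69 between libraries numbered 1, at 0.63 to 0.66 between those numbered 2 and at 0.02 to 0.18 between those numbered 3 (14272 genes). Totals were 13230689 to 25785591 estimated counts. On simulated data for EphB2 vs Ctrl (21179 genes, 50 per change) the test found 16% at a log2 change of 0.5, 74% at 1, 94% at 2 and 92% at -2, with 7 false calls. The changed genes were drawn at random among genes with a mean of at least 1 CPM, each with its own spread. Simulated libraries shared no deviations by replicate number, unlike those numbered 1 and 2 in the data. These shares are not the power for UPK1A, whose biological coefficient of variation was 0.351 against 0.182 in common. Other programs were matplotlib 3.10.9, scipy 1.17.1, pandas 2.3.3, numpy 2.4.6, R 4.3.3 and Python 3.11.15.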

Additional observations from a re-analysis of the deposited data

Results flagged for a closer look

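UPK1A was higher in 0 of 3 same-numbered pairs for ephrin-B1 siRNA with EphB2-Fc (EphB2 + ephrin-B1 siRNA against EphB2), an outcome fixed by the counts that chose the gene. Without EphB2-Fc (ephrin-B1 siRNA against Ctrl) it was higher in 3 of 3, but the ratio was only 1.01 in replicate 2 and the comparison did not pass (edgeR adjusted p = 0.422). Whether the siRNA acts differently with and without EphB2-Fc was not tested, and no opposite effect is shown.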

How the results depend on the processing

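UPK1A kept its direction and stayed short of the threshold in both single-treatment comparisons under all 12 alternatives each, with DESeq2 giving no adjusted p for it (unadjusted p 0.192 for EphB2 against Ctrl and 0.0614 for ephrin-B1 siRNA against Ctrl). Leaving out single libraries gave log2 fold changes of 0.21 to 0.89 for EphB2 against Ctrl and 0.50 to 1.22 for ephrin-B1 siRNA against Ctrl, and ratios of mean CPM of 1.16 to 1.87 and 1.41 to 2.34. The level of EphB2 + ephrin-B1 siRNA over Ctrl, 0 from rounded counts and 0 without any single library, was 0.00338 by TPM and 0.00387 from unrounded counts per library total. The number of genes with the zero pattern in EphB2 + ephrin-B1 siRNA libraries, 1, was 2 at 0.5 times the minimum sum, 0 at 2 times it and 0 when an exact 0 before rounding was asked for, since UPK1A has 0.368 counts in 1 library. In ephrin-B1 siRNA libraries it was 1 at 0.5 times the sum, against 0.

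Genes past the threshold were 8 for EphB2 against Ctrl, 391 for ephrin-B1 siRNA against Ctrl, 133 for EphB2 + ephrin-B1 siRNA against EphB2 and 25 for EphB2 + ephrin-B1 siRNA against ephrin-B1 siRNA. In that order they were 203, 1006, 658 and 269 with DESeq2, 1153, 2932, 2146 and 1495 with the replicate block, and 1, 88, 0 and 2 with only the groups compared. The 0 stands beside 2247 genes at an unadjusted edgeR p under 0.05 in the fit of all groups. Without a filter EphB2 against Ctrl had 13, and filterByExpr gave 205 and 42 for the third and the fourth comparison. Leaving out single libraries gave 0 to 15, 75 to 290, 2 to 117 and 0 to 16. The causes were not tested. The replicate block changed no call of UPK1A (log2 fold change 0.55 for EphB2 against Ctrl and 0.82 for ephrin-B1 siRNA against Ctrl). At this depth the EphB2 + ephrin-B1 siRNA libraries show an upper limit for UPK1A, not its absence.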
